A study of Mus musculus with 10 samples.

Results

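Type I interferon stimulated genes were followed as 34 genes chosen by symbol, *Irf7*, *Irf9*, *Stat2*, *Ifih1*, *Ddx58*, *Dhx58*, *Zbp1*, *Isg15*, *Usp18*, *Herc6*, *Ifit1*, *Ifit2*, *Ifit3*, *Oas1a*, *Oas2*, *Oas3*, *Oasl1*, *Oasl2*, *Mx1*, *Mx2*, *Bst2*, *Ifitm3*, *Rsad2*, *Cmpk2*, *Eif2ak2*, *Samd9l*, *Parp9*, *Parp14*, *Dtx3l*, *Ifi44*, *Ifi35*, *Xaf1*, *Rtp4* and *Trim30a*. Each of the 34 symbols names 1 of the 55401 gene rows of the count files, and each of the 34 genes passed the filter on low counts, the lowest count being 131 reads for *Mx2*. Bulk RNA sequencing covered 10 subcutaneous tumors of the mouse melanoma line B16F10, taken on day 15 from female C57BL/6J mice aged 9 to 12 weeks. A group of 5 tumors grew from cells in which *Mir25*, the gene of the microRNA miR-25, had been knocked out with CRISPR-Cas9 (KO), and the other 5 grew from cells given a non-targeting control (NTC). Every mouse, KO and NTC alike, received Comb, which joins GVAX, irradiated B16 cells that secrete GM-CSF (1000000 cells on days 1 and 4), to αPD-1 (10 mg/kg on days 6, 9 and 12), so untreated tumors do not enter the comparison. The deletion is in the injected tumor cells only, and the leukocytes and stroma of the host keep *Mir25*. Whether the KO cells of these tumors were 1 clone or a mixed population is not given in the sources used here, and the number of injected cells is 50000 in the labels and 500000 in the methods. The question put to the data was whether these genes differed between KO and NTC tumors, in each tumor and against the leukocyte content of the tumor.

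Type I interferons, interferon-β and the interferon-α family, are secreted when a cell senses foreign or misplaced nucleic acid. They bind the receptor IFNAR1 and IFNAR2 on the same and on neighbouring cells, whose kinases JAK1 and TYK2 phosphorylate STAT proteins, STAT2 among them. With IRF9 these form ISGF3, which binds the interferon stimulated response element (ISRE) in the promoters of antiviral genes. Most cell types, melanoma cells and leukocytes included, can mount this response, and many of its genes also answer to interferon-γ. In tumors the response is known for its part in dendritic cell priming of T cells.

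The ISRE is the response element of this pathway, and its core, the letters GAAA, any 2 bases and GAAA again, on either strand, was searched for in the RefSeq promoter windows of 300 bases, from 250 before to 50 after the transcript start (GRCm38.p6). A window was matched for 25 of the 34 genes and not for *Dhx58*, *Zbp1*, *Usp18*, *Oas2*, *Mx1*, *Mx2*, *Parp9*, *Parp14* and *Rtp4*. The core was found in 13 of the 25 genes (52.0%), against 3.99% of the 27025 genes with a window. These were *Ifih1*, *Ddx58*, *Isg15*, *Oas3*, *Oas1a*, *Trim30a*, *Ifitm3*, *Bst2*, *Stat2*, *Rsad2*, *Eif2ak2*, *Ifit3* and *Ifit1*. The core of the gamma activated site, TTCNNNGAA, was found in 6 of the 25 genes (24.0%) against 9.55% of genes, and in *Ifitm3* and *Bst2* it overlaps an ISRE core. A match of letters is a description of the window and not evidence of binding. The 30 bases around the match farthest upstream are shown for the 6 genes with the highest level per length among those with a match, in the direction of the gene, with the core or its reverse complement in capitals.
*Ifitm3*, chr7:141010723-141010752, minus strand: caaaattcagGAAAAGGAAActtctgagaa
*Bst2*, chr8:71537583-71537612, minus strand: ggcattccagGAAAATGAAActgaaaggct
*Ifit3*, chr19:34583363-34583392, plus strand: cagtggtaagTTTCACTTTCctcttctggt
*Rsad2*, chr12:26456553-26456582, minus strand: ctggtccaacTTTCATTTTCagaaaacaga
*Isg15*, chr4:156200877-156200906, minus strand: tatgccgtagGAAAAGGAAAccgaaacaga
*Ifit1*, chr19:34640775-34640804, plus strand: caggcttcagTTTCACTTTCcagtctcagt
In *Isg15* 3 matches lie on top of each other, with first bases 78, 72 and 66 bases before the start. The match shown for *Ifitm3* begins 2 bases after the start, whereas that of *Ifit3* begins 156 bases before it.

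Reads assigned to genes numbered 23243707 to 27006075 in the KO tumors and 11896643 to 28682130 in the NTC tumors. The library of NTC replicate 1 stands apart: it has the lowest total, 42.9% of its reads were counted as lying in no annotated gene against 17.5% to 28.2% in the other 9, and its TMM normalization factor was 0.628 against 0.968 to 1.11. The main counts are therefore given over 10 tumors and over the 9 others, as are the plain fold changes of KO against NTC that leaving out this library moved by over 1.5 times. Summed markers of melanoma cells stood between 11782 and 22430 CPM (counts scaled to the size of each library) in all 10 tumors. *Mir25* itself had no read in any library, KO or NTC, so these counts do not check the knockout. The labels speak of biological replicates without naming mice, so the p-values measure the spread between these tumors.

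Levels of the 34 genes, as TMM-normalized CPM per kilobase of exon so that genes can be set beside each other, spanned from 4.38 for *Oas3*, which makes the 2-5A activator of RNase L, to 443 for *Ifitm3*, which blocks virus entry at membranes. *Bst2*, tetherin, which holds budding virions on the cell surface, followed at 255, *Ifit3* at 114 and *Ifit2* at 64.8 CPM per kilobase. The IFIT proteins bind foreign RNA and restrain its translation. *Ifitm3* stood in CPM at 233, 298, 295, 216 and 376.2 in KO replicates 1 to 5 and at 362, 341, 365, 193 and 327 in NTC replicates 1 to 5. *Bst2* stood at 186, 232, 241, 191 and 249 CPM in KO and at 193, 286, 291, 158 and 279.6 in NTC. In both genes NTC replicate 4 was the lowest of all 10 tumors, and the KO values lay within the range of the NTC values but for the highest *Ifitm3* value, in KO replicate 5. *Ifit3* stood at 184, 184, 186, 147 and 272 CPM in KO and at 207, 208, 273, 112 and 220.3 in NTC, and again NTC replicate 4 was lowest.

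Levels of the 34 genes varied together from tumor to tumor. NTC replicate 4 was the lowest NTC tumor for all 34 genes and the lowest of 10 for 24 of them. KO replicate 5 was the highest KO tumor for 32 genes and KO replicate 4 the lowest KO tumor for 27. The highest of 10 was NTC replicate 3 for 17 genes, KO replicate 5 for 9, NTC replicate 1 for 6 and NTC replicate 2 for 2. Summed over the 34 genes, levels were 3715, 3874, 3503, 3035 and 5233 CPM in KO replicates 1 to 5 and 4969, 4371, 5224, 2761 and 4463 CPM in NTC. So 4 of the KO sums lay under 4 of the NTC sums, while KO replicate 5 and NTC replicate 4 crossed over. The widest span belonged to *Oasl1*, with a ratio of highest to lowest tumor of 6.12, followed by *Irf7* (5.56), *Oas3* (5.54), *Trim30a* (4.70) and *Mx2* (4.35). The narrowest was that of *Eif2ak2*, the kinase PKR that halts translation on double-stranded RNA, at 1.51.

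**Figure D1:**
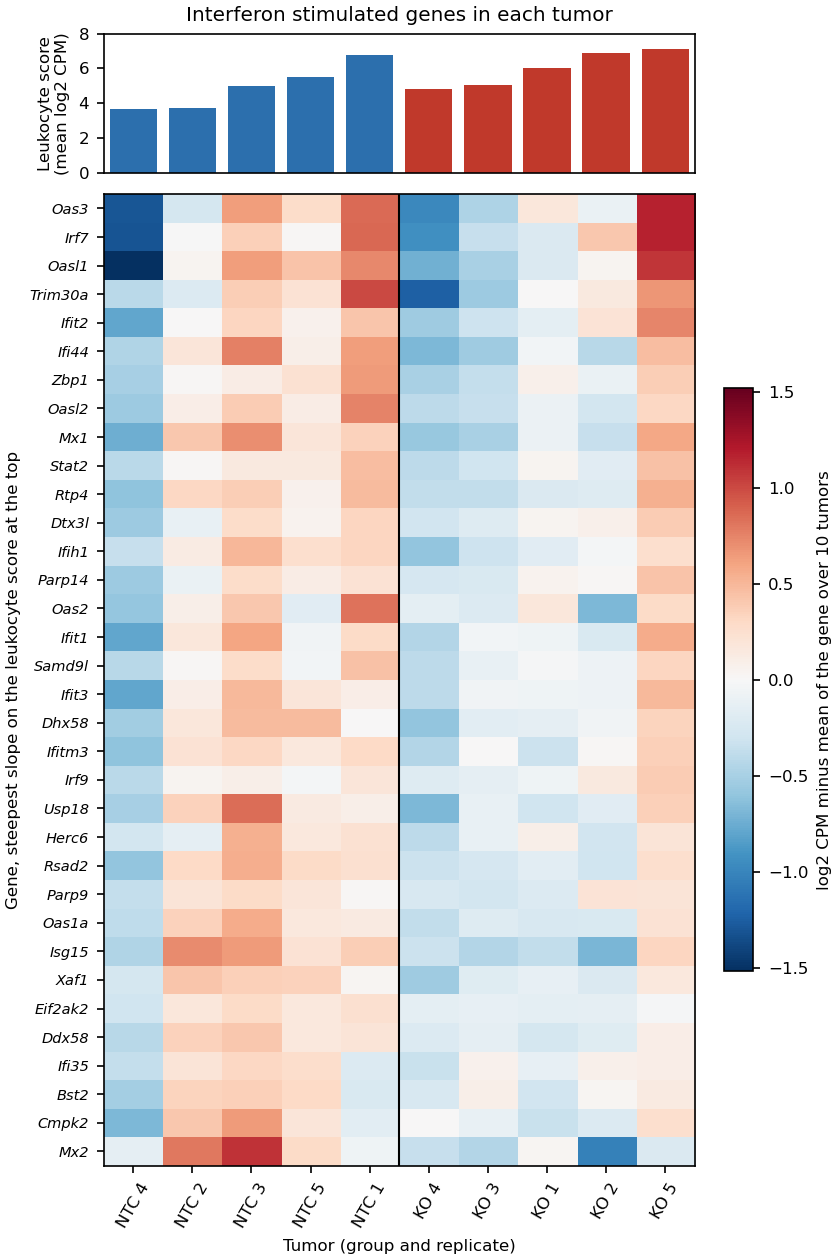
Level of each gene in each tumor as log2 CPM minus the mean of that gene over 10 tumors, with the leukocyte score (mean log2 CPM of 10 pan-leukocyte genes) as bars above. Tumors are ordered within NTC (left) and KO (right) by that score, and genes by the slope of their level on it. NTC replicate 4 is the lowest NTC column for all 34 genes and KO replicate 5 the highest KO column for 32.

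The first comparison set the 5 KO against the 5 NTC tumors. Fitted values lay below 0 for 30 of the 34 genes, with a median log2 fold change of -0.22 beside 0.0076 over all 15821 genes tested, of which 48.7% lay below 0. None of the 34 passed the test (edgeR's quasi-likelihood test, adjusted p under 0.05 over all genes tested and an absolute log2 fold change above 1), which 0.019% of all genes passed, and the lowest adjusted p was 0.361. DESeq2 also called 0 of the 34 (background 0.609%), with a lowest adjusted p of 0.116. At an unadjusted p under 0.05, 4 genes were lower in KO by either tool and 0 higher, that is 11.8% of the 34 beside 4.85% of all genes that were lower by edgeR and 5.46% by DESeq2. KO and NTC values overlapped in each of the 34 genes, whereas 1.47% of all genes were lower, and 0.866% higher, in every KO tumor than in any NTC tumor. Without NTC replicate 1 the test again called 0 of the 34 (background 0.106%), 28 values lay below 0 (background 51.9%), the median was -0.20, and 3 genes had an unadjusted p under 0.05 in the lower direction (background 8.1%). Leaving out KO replicate 5 gave 34 values below 0 and 13 lower at an unadjusted p under 0.05 (3.68% of all genes), and leaving out NTC replicate 4 gave 34 and 12 (3.62%). The same count was 1 without KO replicate 1, 2, 3 or 4 or NTC replicate 2 or 3, beside 3.57% to 5.86% of all genes, and 2 without NTC replicate 5, beside 4.44%.

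The Mx genes encode antiviral GTPases, and both are defective alleles in classical laboratory mouse strains. By fold change *Mx2* was the lowest of the 34 genes. It stood at 18.9, 9.08, 13.6, 14.5 and 15.9 CPM in KO and at 17.6, 32.2, 39.5, 16.9 and 22.7 CPM in NTC. Of the KO tumors, replicate 1 reached above NTC replicates 1 and 4, and the other 4 stayed under every NTC tumor. The log2 fold change was -0.84 ± 0.27 (SE, n = 5 and 5), with an adjusted p of 0.361 by edgeR's quasi-likelihood test. *Mx1*, known as the influenza resistance gene, stood at 48.2, 40.0, 36.3, 34.2 and 76.6 CPM in KO and at 65.2, 68.1, 83.3, 30.7 and 58.2 CPM in NTC, for a log2 fold change of -0.38 ± 0.28. The 2 groups of *Mx1* values overlapped through KO replicate 5 and NTC replicate 4.

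*Isg15*, a ubiquitin-like protein joined to other proteins and also secreted, stood at 29.6, 23.7, 27.9, 30.4 and 48.0 CPM in KO. In NTC it stood at 49.4, 62.8, 59.97, 27.8 and 44.5 CPM. KO replicates 1 to 4 were close together at about the level of NTC replicate 4, and KO replicate 5 reached the level of NTC replicates 1 and 5. Its log2 fold change was -0.62 ± 0.24, with an adjusted p of 0.493 by edgeR. *Usp18*, the protease that removes ISG15 and dampens the receptor, stood at 38.0, 41.5, 43.2, 29.3 and 60.3 CPM in KO and at 49.98, 59.6, 84.1, 33.0 and 51.6 CPM in NTC, with a log2 fold change of -0.39 ± 0.25. *Herc6*, the mouse ligase that attaches ISG15, spanned 95.5 to 144 CPM in KO and 104 to 183 CPM in NTC, with a log2 fold change of -0.22 ± 0.17.

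**Figure D2:**
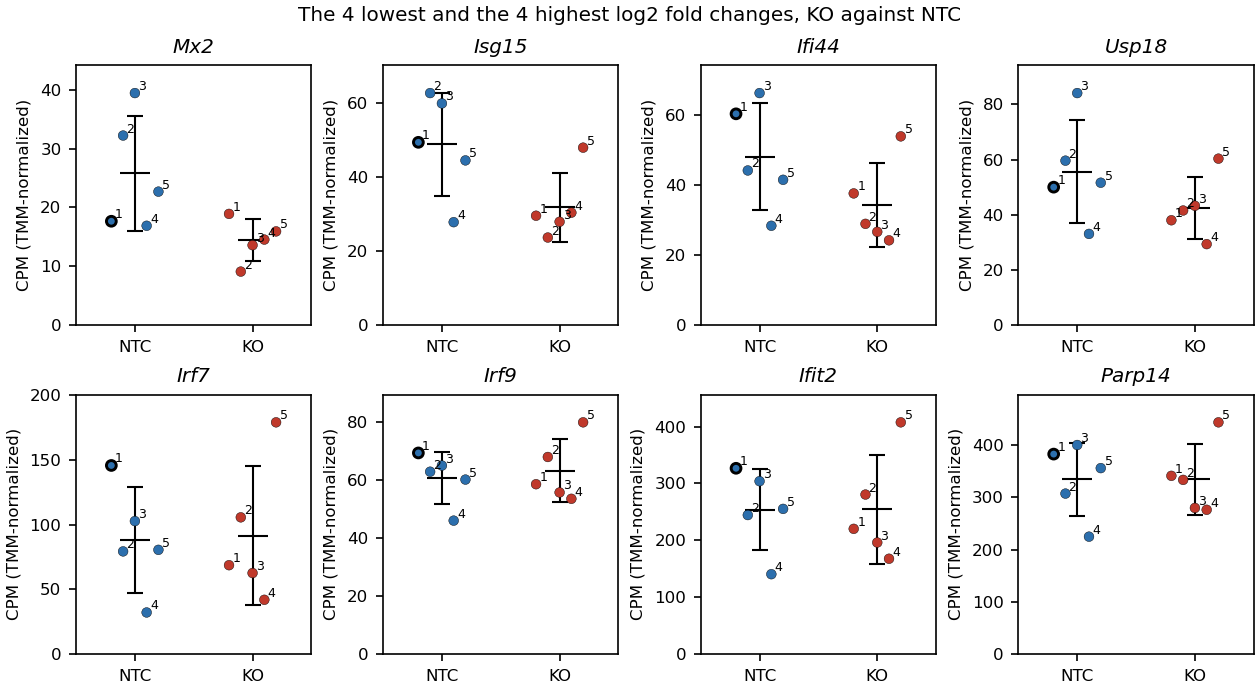
CPM in each tumor for the 4 genes with the lowest log2 fold change of KO against NTC (top) and the 4 with the highest (bottom). Points are tumors numbered by replicate, the heavy ring marks NTC replicate 1, and bars give the mean and SD of 5 tumors. KO and NTC values overlap in all 8 genes.

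Among the nucleic acid sensors, all 4 fitted values lay below 0. *Ifih1* (MDA5) and *Ddx58* (RIG-I) detect viral RNA in the cytosol, and *Dhx58* (LGP2) modulates them. Their log2 fold changes were -0.34 ± 0.18, -0.30 ± 0.15 and -0.26 ± 0.21. *Zbp1*, which senses Z-form nucleic acid and can start necroptosis, stood at 162, 144, 120.3, 109.9 and 200.1 CPM in KO. In NTC it stood at 242, 156, 167, 109 and 182 CPM, for a log2 fold change of -0.22 ± 0.22. NTC replicate 1 held the highest *Zbp1* value, and without it the fold change was -0.10.

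Of the 3 regulators of the response, *Irf7*, the master regulator of interferon-α genes, stood at 68.7, 106, 62.7, 42.0 and 179 CPM in KO and at 146, 79.4, 103, 32.2 and 80.6 CPM in NTC. KO replicate 5 and NTC replicate 1 were the highest tumors of their groups. The log2 fold change of *Irf7* was 0.059 ± 0.44, and it was 0.27 without NTC replicate 1 and -0.33 without KO replicate 5. *Irf9*, the DNA-binding part of ISGF3, stood at 58.6, 68.0, 55.7, 53.6 and 79.9 CPM in KO and at 69.4, 62.9, 65.0, 46.0 and 60.2 CPM in NTC, a log2 fold change of 0.058 ± 0.14. *Stat2*, its partner, had -0.15 ± 0.19, or -0.076 ± 0.18 without NTC replicate 1. None of the 3 had an unadjusted p under 0.05 over 10 tumors.

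In the Ifit family *Ifit2* had a log2 fold change of 0.0016 ± 0.27, with 220.3, 281, 196, 168 and 407 CPM in KO and 327, 244, 304, 141 and 255 CPM in NTC. *Ifit1* stood at 79.8, 71.1, 81.3, 61.5 and 124 CPM in KO and at 102, 94.6, 127, 48.4 and 80.9 CPM in NTC, a log2 fold change of -0.12 ± 0.25. That of *Ifit3* was -0.068 ± 0.23. The KO mean of *Ifit2*, 254 ± 95.1 CPM (SD, n = 5), and the NTC mean, 254 ± 72.0, differed by far less than the SD of either group. The log2 fold change of *Ifit2* without NTC replicate 1 was 0.069 ± 0.28. Reads of *Ifit3* and its near copy *Ifit3b*, and of *Oas1a* and *Oas1g*, may have been divided between the copies, so these values are uncertain.

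The Oas enzymes make 2-5A, the messenger that activates RNase L. *Oas1a* stood at 41.4, 42.0, 43.0, 38.0 and 57.4 CPM in KO and at 54.0, 62.4, 72.4, 37.5 and 55.0 CPM in NTC, with a log2 fold change of -0.34 ± 0.17. KO replicate 5 was the only KO tumor of *Oas1a* above NTC replicates 1 and 5. *Oas2*, *Oasl2* and *Oas3* had -0.26 ± 0.27, -0.36 ± 0.22 and -0.07 ± 0.45. *Oasl1*, which lacks that activity and is a brake on the translation of *Irf7*, stood at 14.02, 16.8, 11.6, 9.80 and 34.6 CPM in KO and at 27.1, 16.8, 25.3, 5.65 and 22.1 CPM in NTC, for -0.16 ± 0.44. The standard errors of *Oas3* and *Oasl1* exceeded their fold changes. Leaving out NTC replicate 1 gave fold changes of -0.09 ± 0.24 for *Oas2*, -0.22 ± 0.20 for *Oasl2*, 0.10 ± 0.46 for *Oas3* and -0.051 ± 0.45 for *Oasl1*.

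Of the other effectors, *Eif2ak2* had -0.24 ± 0.11 (unadjusted p = 0.0478, adjusted p = 0.554 by edgeR) and *Xaf1*, an antagonist of the apoptosis inhibitor XIAP, -0.37 ± 0.16 (unadjusted p = 0.0398, adjusted p = 0.525 by edgeR). *Eif2ak2* spanned 121 to 133 CPM in KO and 109 to 165 CPM in NTC, where only replicate 4 lay below the KO tumors. *Xaf1* spanned 46.1 to 74.5 CPM in KO and 55.6 to 89.6 CPM in NTC. *Rsad2*, viperin, and its genomic neighbour *Cmpk2*, a mitochondrial nucleotide kinase, had -0.35 ± 0.20 and -0.22 ± 0.22. *Ifi44* stood at 37.6, 28.9, 26.6, 24.2 and 53.9 CPM in KO and at 60.3, 44.2, 66.3, 28.3 and 41.5 CPM in NTC, a log2 fold change of -0.49 ± 0.27. *Trim30a*, *Rtp4*, *Samd9l* and *Ifi35* had -0.33 ± 0.35, -0.25 ± 0.23, -0.12 ± 0.17 and -0.10 ± 0.15, and the membrane factors *Ifitm3* and *Bst2* -0.16 ± 0.20 and -0.14 ± 0.18. Over the 9 tumors other than NTC replicate 1 *Trim30a* had -0.12 ± 0.32, *Samd9l* -0.053 ± 0.16, *Ifi35* -0.19 ± 0.15 and *Bst2* -0.24 ± 0.18.

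*Parp14*, *Parp9* and *Dtx3l*, neighbours on chromosome 16 that add ADP-ribose and ubiquitin, were near 0. *Parp14* stood at 341, 333, 279.6, 276 and 443 CPM in KO and at 383, 307, 400.0, 225 and 356 CPM in NTC, a log2 fold change of 0.0029 ± 0.18. *Dtx3l* had -0.0071 ± 0.18 and *Parp9* -0.13 ± 0.15. *Parp14* had 0.021 ± 0.18 and *Dtx3l* 0.04 ± 0.17 without NTC replicate 1. The sign of *Parp14*, *Ifit2* and *Dtx3l* turned under other settings, and none of their values exceeded its standard error. *Parp9* (chr16:35938470-35972605) and *Dtx3l* (chr16:35926511-35939151), on opposite strands of GRCm38, share 9.40% and 8.0% of their exon bases. *Ifi35* shares 16.8% with an antisense gene, and *Rtp4* and *Herc6* share 13.9% and 13.7% with genes on their own strand. The strand setting of the counting is not given in the sources used here, so reads on those bases cannot be told apart.

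The second question was how the genes stood against leukocyte content, since a tumor holds both melanoma cells and leukocytes that express them. Leukocyte content was measured as the mean log2 CPM of *Ptprc* (CD45), *Cd53*, *Laptm5*, *Coro1a*, *Itgb2*, *Rac2*, *Cd37*, *Cd48*, *Fermt3* and *Was*. This score was 6.00, 6.86, 5.04, 4.83 and 7.14 in KO replicates 1 to 5 and 6.77, 3.75, 5.01, 3.67 and 5.53 in NTC. The difference of KO minus NTC was 1.03, with an exact two-sided permutation p of 0.206 (adjusted over 3 scores, 0.310). Without NTC replicate 1 it was 1.48, with an exact permutation p of 0.0794 (adjusted 0.0952). The macrophage score gave 1.21 (exact permutation p = 0.198), or 1.74 without NTC replicate 1 (exact permutation p = 0.0714). In bulk tissue more leukocytes and more RNA per leukocyte cannot be told apart.

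In a fit on the leukocyte score and the group, 15 of the 34 genes (44.1%) rose with the score at an adjusted p under 0.05 by edgeR, 0 fell, and 33 had a slope above 0. Of all genes tested, 22.9% rose with the score, 38.0% passed in either direction and 48.9% had a slope above 0. The slope is the change in log2 level per unit of the score. Its median over the 34 genes was 0.19, beside 1.00 for the 10 pan-leukocyte genes, which make up the score, and -0.0054 for all genes. The excess over all genes depended on the fit: with the score fitted without the group 9 of the 34 (26.5%) rose beside 22.6% of all genes, and with the replicate number as a block 2 (5.88%) rose beside 13.5%. DESeq2 called 15 as well, beside 23.4% of all genes that rose by that tool. Without NTC replicate 1, 11 genes passed, beside 15.5% of all genes that rose. Of these, 10 were among the 15, *Dhx58* was added, and *Ifi44*, *Irf9*, *Oasl2*, *Rtp4* and *Samd9l* no longer passed.

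*Trim30a*, a TRIM protein that restrains TLR-driven NF-κB signalling in mouse macrophages, had the lowest p of these slopes. It stood at 119, 132, 81.2, 50.5 and 189 CPM in KO and at 237, 103, 154, 89.8 and 138 CPM in NTC, so that the order of the tumors within each group was nearly that of their leukocyte scores. Its slope was 0.50 ± 0.066 (adjusted p = 0.000129 by edgeR), and 0.53 ± 0.088 without NTC replicate 1. *Oas3* stood at 30.6, 25.3, 19.7, 13.8 and 61.2 CPM in KO and at 49.4, 22.7, 42.4, 11.1 and 33.1 CPM in NTC. Its slope, 0.60 ± 0.12, was the steepest of the 34, followed by *Irf7* (0.56 ± 0.11) and *Oasl1* (0.53 ± 0.13). The adjusted p by edgeR was 0.00222 for *Oas3*, 0.00206 for *Irf7* and 0.00729 for *Oasl1*, and all 3 passed without NTC replicate 1.

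The other genes that passed had shallower slopes. *Ifit2* had 0.34 ± 0.076, *Zbp1* 0.28 ± 0.051, *Stat2* 0.23 ± 0.052, *Dtx3l* 0.22 ± 0.049, *Parp14* 0.21 ± 0.055 and *Ifih1* 0.21 ± 0.059. These 6 passed with and without NTC replicate 1, and *Ifih1* lost the call without KO replicate 4 or 5. Without the filter on low counts *Ifih1* and *Parp14* lost it, and with the score fitted without the group *Stat2* and *Ifih1* did. With the replicate number as a block all 6 lost it. *Stat2* stood at 111, 96.0, 87.2, 82.2 and 147 CPM in KO and at 149, 109, 119.5, 81.3 and 119.5 CPM in NTC, with KO replicate 5 and NTC replicate 1 highest and NTC replicate 4 lowest. *Dtx3l* spanned 183 to 291 CPM in KO and 152 to 278 CPM in NTC. *Oasl2*, an OAS enzyme that carries ubiquitin-like domains, spanned 69.2 to 114 CPM in KO and 62.6 to 154 CPM in NTC. *Ifi44* had 0.29 ± 0.093, *Oasl2* 0.26 ± 0.064, *Rtp4* 0.22 ± 0.082, *Samd9l* 0.20 ± 0.053 and *Irf9* 0.15 ± 0.045. Of the 15 genes 9 kept the call whichever 1 of the 10 tumors was left out. *Oasl2* and *Samd9l* lost it without NTC replicate 1 alone, whereas *Irf9* lost it in 4 of the 10 such fits (without KO replicate 4 or 5 or NTC replicate 1 or 4) and *Ifi44* in 5 (without KO replicate 3, 4 or 5 or NTC replicate 1 or 4). *Rtp4* kept it in only 3 of the 10 (without KO replicate 2 or NTC replicate 2 or 5) and lost it with RLE normalization, with robust dispersion and with *Ptprc* alone as the leukocyte measure.

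At the other end stood *Mx2*, *Bst2* and *Cmpk2*. *Mx2* had a slope of -0.086 ± 0.13, the only one below 0, *Bst2* 0.031 ± 0.084 and *Cmpk2* 0.031 ± 0.10, and over 9 tumors without NTC replicate 1 these were -0.0015 ± 0.15, 0.12 ± 0.094 and 0.11 ± 0.12. *Cmpk2* stood at 47.4, 52.1, 55.3, 60.3 and 71.6 CPM in KO and at 53.9, 79.5, 94.1, 37.5 and 68.0 CPM in NTC. NTC replicate 2, with a leukocyte score of only 3.75, held the value next below the highest among NTC tumors for *Cmpk2*, *Mx2* and *Bst2* alike. Slopes of *Isg15*, *Xaf1*, *Ifi35*, *Ddx58* and *Eif2ak2* lay between 0.051 and 0.10 and did not pass.

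**Figure D3:**
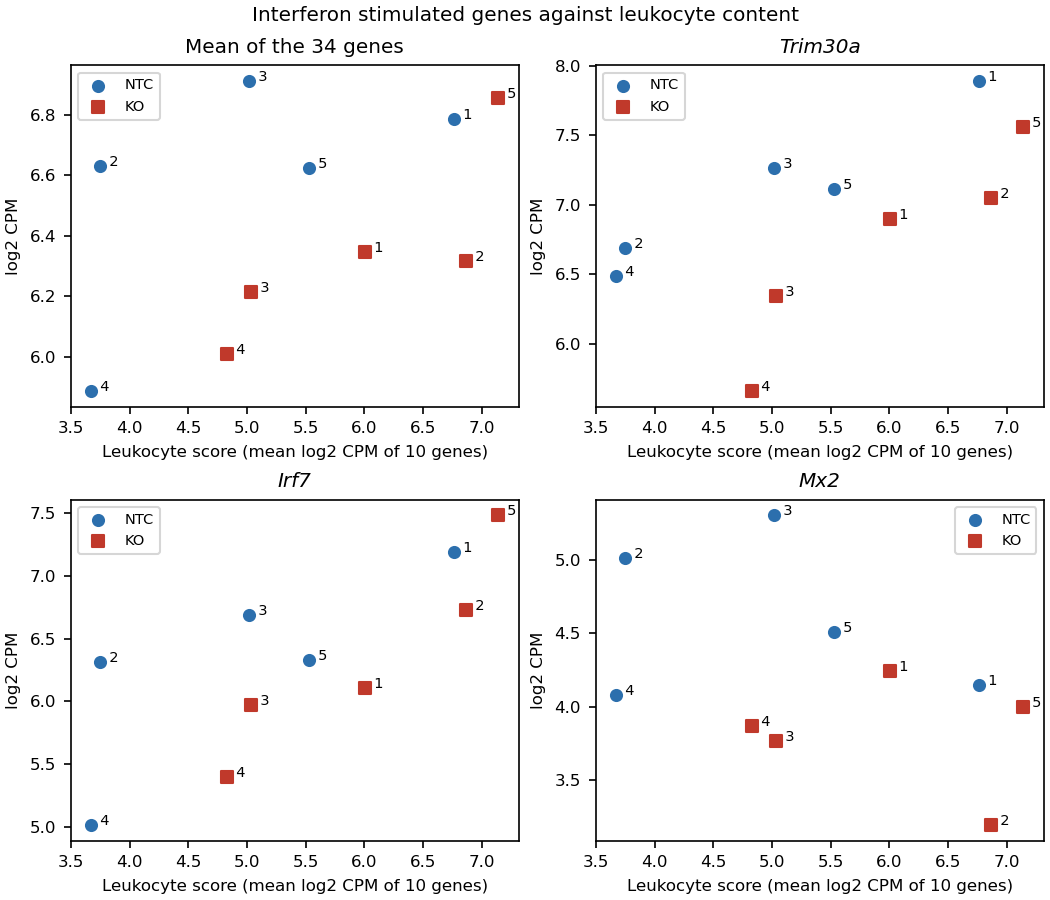
Mean log2 CPM of the 34 genes, and log2 CPM of *Trim30a*, *Irf7* and *Mx2*, against the leukocyte score (mean log2 CPM of 10 genes). Each point is 1 tumor, numbered by replicate, with NTC as circles and KO as squares. *Trim30a* and *Irf7* climb with the score, *Mx2* does not, and NTC replicates 2 and 4 lie far apart in the mean of the 34 genes at nearly the same score.

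Tumors with like scores show how the genes stood at a given leukocyte content. KO replicate 3 and NTC replicate 3 had scores of 5.04 and 5.01, and all 34 genes were lower in the KO tumor, with a median difference of -0.64 on the log2 scale. KO replicate 2 and NTC replicate 1 had scores of 6.86 and 6.77, and 31 of the 34 genes were lower in the KO tumor, with a median difference of -0.42. KO replicate 4 had a score of 4.83, under the 5.01 of NTC replicate 3, and all 34 genes were lower in it, with a median difference of -0.87. KO replicate 5, with 7.14, also stood above the 6.77 of NTC replicate 1, and of this pair only 13 of the 34 genes were lower in the KO tumor, with a median difference of 0.077. These pairs rest on NTC replicates 1 and 3 alone. NTC replicate 3 was the highest of all 10 tumors for 17 genes, and NTC replicate 1 is the library that stood apart. Tumors of the same group also differed at like scores: NTC replicates 2 and 4 had scores of 3.75 and 3.67, and all 34 genes were higher in replicate 2, by a median of 0.71. The gap between these control tumors thus lay within the range of the gaps between KO and NTC tumors.

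At equal leukocyte score the fitted log2 fold change of KO against NTC lay below 0 for all 34 genes, from -0.11 for *Irf9* to -0.89 for *Trim30a*, with a median of -0.44. Over all genes the median was 0.0092 and 48.4% lay below 0. None of the 34 passed edgeR's test with adjusted p under 0.05 and an absolute log2 fold change above 1, which 0.0506% of all genes passed. At an unadjusted p under 0.05, 21 of the 34 (61.8%) were lower in KO and 0 higher, beside 6.45% of all genes that were lower. Without NTC replicate 1 all 34 values lay below 0 (background 47.0%), the median was -0.51, 0 passed (background 0.0684%) and 25 were lower at an unadjusted p under 0.05 (background 4.14%). DESeq2 called 0 with the fold threshold (background 0.746%), and 24 genes were lower at an unadjusted p under 0.05 (background 6.72%). Without the fold threshold 5 genes were lower at an adjusted p under 0.05 by DESeq2, *Ifih1*, *Zbp1*, *Oasl2*, *Ifi44* and *Trim30a* (background 1.57%), and 0 by edgeR over 10 tumors. By edgeR *Trim30a* did pass that way over 10 tumors without the filter on low counts (adjusted p = 0.0224) and with the ratio of leukocyte to melanoma reads in place of the score (adjusted p = 0.0425). The 34 genes move together from tumor to tumor, so their signs are not 34 independent results. This fit takes 1 slope for both groups. NTC replicates 2 and 4, with scores of 3.75 and 3.67, lay below every KO tumor (lowest 4.83), so the fit extrapolates there. KO scores were higher on average and nearly all slopes lay above 0, so the adjustment itself moves most values down. The unadjusted count was 8 without KO replicate 4 (5.93% of all genes) and 9 without NTC replicate 3 (6.02%). With the replicate number as a block it was 9 (6.13%), and the median was -0.30. All 34 values stayed below 0 in each of these fits.

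*Trim30a* had the lowest p of this comparison, with a log2 fold change of -0.89 ± 0.16 and an adjusted p of 0.0570 by edgeR, and -0.98 ± 0.20 with an adjusted p of 0.108 without NTC replicate 1. Its adjusted p by edgeR ranged from 0.0474 to 0.194 when 1 tumor was left out, and it was 2.81e-05 by DESeq2 over 10 tumors. *Ifi44* had -0.80 ± 0.22, *Mx2* -0.76 ± 0.29, *Oasl1* -0.75 ± 0.31, *Isg15* -0.73 ± 0.25, *Oas3* -0.72 ± 0.28 and *Mx1* -0.66 ± 0.26. The sensors *Ifih1* and *Zbp1* had -0.58 ± 0.14 and -0.50 ± 0.12, each with an adjusted p of 0.112 by edgeR. *Irf7*, whose fold change was above 0 before the adjustment, had -0.58 ± 0.27. *Parp14*, *Dtx3l*, *Bst2*, *Ifi35* and *Irf9* were among those nearest to 0 over 10 tumors, with -0.22, -0.24, -0.17, -0.16 and -0.11. Which genes stood nearest to 0 depended on the tumors: with NTC replicate 1 left out these values were -0.34, -0.30, -0.40, -0.37 and -0.17, and that of *Oas2* went from -0.43 to -0.20. *Bst2* was -0.093 without NTC replicate 3 and *Ifi35* -0.052 without KO replicate 4.

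**Figure D4:**
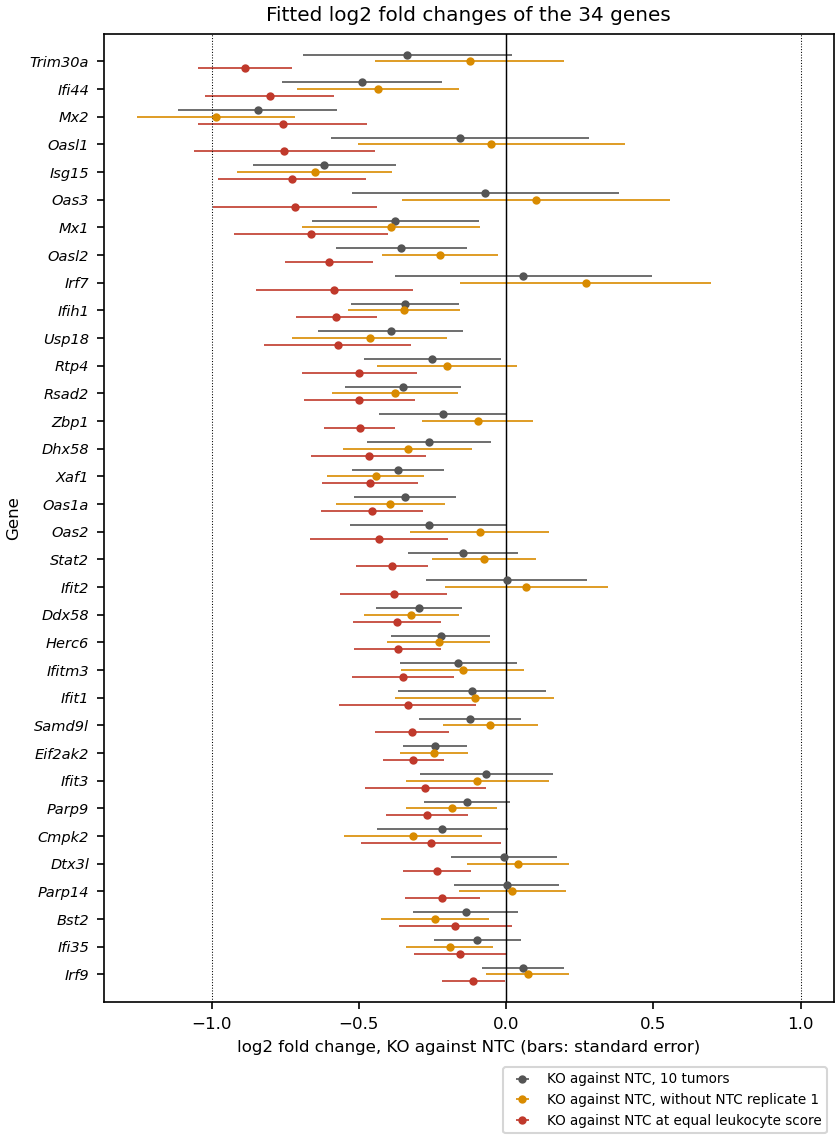
Fitted log2 fold change of KO against NTC for the 34 genes over 10 tumors (grey), over 9 tumors without NTC replicate 1 (orange) and over 10 tumors at equal leukocyte score (red). Points are estimates, bars are standard errors, and dotted lines mark a log2 fold change of 1 in either direction. All 34 red points lie below 0, and 30 of the grey ones.

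The rest of the pathway was read from lists of its ligands, receptor and kinases, upstream sensors, inhibitors and further stimulated genes. Of 18 type I interferon ligand genes none passed the filter on low counts, and 9 had no read in any library. *Ifnb1*, interferon-β, had 8 reads in all, of which 5 lay in NTC replicate 3, and all 18 genes together had 24 reads, so ligand differences were not detectable at this depth. Of 6 genes of the receptor and its signalling 0 passed the test of KO against NTC by either tool, with *Ifnar1* at 0.16 ± 0.10, *Ifnar2* at 0.18 ± 0.22, *Jak1* at 0.20 ± 0.23 and *Tyk2* at 0.32 ± 0.18. Of the 6, 1 gene, *Stat3*, was lower at an unadjusted p under 0.05 with -0.18 ± 0.079 (background 4.85%), and 0 were higher (background 3.99%). These counts without NTC replicate 1 were again 1 (background 8.1%) and 0 (background 12.0%), with *Ifnar2* at 0.33 ± 0.18 and *Jak1* at 0.37 ± 0.18.

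Of 13 genes that sense nucleic acid upstream of the ligands, 0 passed by either tool. *Tlr7* and *Tlr9*, endosomal receptors of leukocytes, had 1.19 ± 0.87 and 1.04 ± 0.65, and at equal leukocyte score 0.22 ± 0.17 and 0.16 ± 0.27. Without NTC replicate 1 *Tlr7* had 2.37 ± 0.70 with an adjusted p of 0.161 by edgeR, which does not pass. Of the 13, 1 gene, *Tlr3*, was lower at an unadjusted p under 0.05 (background 4.85%), with -0.35 ± 0.11, and without NTC replicate 1 the count was 1 lower (background 8.1%) and 2 higher (background 12.0%). Among 7 inhibitors tested 0 passed by either tool and 0 had an unadjusted p under 0.05, and the largest values were *Samhd1*, which removes nucleotides, at 0.63 ± 0.40, and *Irf2* at 0.33 ± 0.29. With NTC replicate 1 left out they had 0.91 ± 0.36 and 0.57 ± 0.22, and 3 of the 7 were higher at an unadjusted p under 0.05, beside 12.0% of all genes, with none called by edgeR. *Trex1* had no read in any library, and all of its exon bases also belong to *Atrip*.

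Of 57 further stimulated genes 56 were tested, *Mnda* having no row, and 0 passed by either tool. Of these 31 lay below 0, with a median of -0.03, and 4 were lower at an unadjusted p under 0.05 (beside 4.85% of all genes). At equal leukocyte score 51 of the 56 lay below 0, with a median of -0.34, and 24 were lower at an unadjusted p under 0.05 (beside 6.45% of all genes), as against the 34 of 34, -0.44 and 21 of the genes described above. Over the 9 tumors 29 lay below 0 (background 51.9%) and 4 were lower at an unadjusted p under 0.05 (background 8.1%), so both counts were near the background, and at equal score 54 (background 47.0%) and 26 (background 4.14%). *Isg20*, an exonuclease that degrades RNA, stood at 8.16, 5.73, 5.36, 6.70 and 9.92 CPM in KO and at 19.3, 12.4, 12.5, 11.5 and 9.71 CPM in NTC, a log2 fold change of -0.86 ± 0.23 (adjusted p = 0.248 by edgeR). *Ifit1bl1* had 0.95 ± 0.79, and -0.49 ± 0.34 at equal leukocyte score. At equal leukocyte score *Isg20* had -1.04 ± 0.21 with an adjusted p of 0.0705 by edgeR, and DESeq2 passed 2 of the 56, *Isg20* and *Ifi211*, both lower (background 0.746% in either direction). With the leukocyte score 34 of the 56 rose, beside 22.9% of all genes, and 0 fell, and without NTC replicate 1, 31 rose, beside 15.5%.

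The 17 interferon-γ induced GTPases, which attack vacuoles of pathogens, were set beside the 34 genes; *Gbp2* is also among the further stimulated genes. By both tools 0 of the 17 passed the test of KO against NTC, and 2 were lower at an unadjusted p under 0.05 by edgeR (beside 4.85% of all genes). Their median log2 fold change was -0.14 over 10 tumors and -0.36 at equal leukocyte score, where 7 were lower at an unadjusted p under 0.05 (beside 6.45% of all genes), and 10 of the 17 (beside 22.9%) rose with the score. Over the 9 tumors the medians were -0.17 and -0.56, 3 (background 8.1%) and 13 (background 4.14%) were lower at an unadjusted p under 0.05, and 13 rose with the score (background 15.5%). Whether they differ from the 34 genes in any of these was not tested.

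Markers of other cell types varied between the same tumors. Skeletal muscle markers, 8 genes, summed to 2.91, 8.47, 41.7, 215 and 2.05 CPM in KO replicates 1 to 5 and to 1.35 to 4.98 CPM in NTC (at most 2.00 CPM without NTC replicate 1), and 2 of the 8 passed the low-count filter, both higher in KO at an unadjusted p under 0.05 (background 3.99%) and neither called by edgeR. KO replicate 4, with the highest muscle sum, was also the lowest KO tumor for 27 of the 34 genes, and it had the lowest KO leukocyte score (4.83). KO replicate 3, with the next highest muscle sum, was the lowest KO tumor for 1 gene. Erythrocyte markers, 5 genes, summed to 250 to 1606 CPM in KO and 74.9 to 427 CPM in NTC, or at most 207 CPM in NTC without replicate 1, so that every KO sum lay above those of the other 4 NTC tumors, and all 5 were higher in KO at an unadjusted p under 0.05, beside 3.99% of all genes, without passing edgeR's test. Fibroblast markers, 7 genes, ranged over 1083 to 6016 CPM in KO and 62.7 to 6727 CPM in NTC, or at most 1803 CPM in NTC without replicate 1, and all 7 rose with the leukocyte score, beside 22.9% of all genes. Keratinocyte markers, 6 genes, summed to 0.756 to 32.9 CPM in KO and 1.25 to 2.83 CPM in NTC, where *Krt5* and *Lor* were at 0 in every tumor. Plasmacytoid dendritic cells are rich producers of type I interferon, and 6 genes listed as their markers, none at 0 throughout a group, summed to 7.48 to 18.9 CPM in KO and 6.43 to 23.6 CPM in NTC, or at most 12.7 CPM without NTC replicate 1. Most of this sum came from *Pacsin1* and *Runx2*. *Pacsin1* was highest in NTC replicate 2 (8.80 of the 10.2 CPM), where *Siglech* was lowest (0.164 CPM). The listed genes thus did not move together, and their sum is not a reliable measure of these cells. The 10 pan-leukocyte genes summed to 434 to 2333 CPM in KO and 202 to 1752 CPM in NTC, or at most 718 CPM in NTC without replicate 1, with all 10 above 0 in fold change and 0 of them called by edgeR. The part of these cell types in the levels of the 34 genes was not tested beyond the leukocyte score.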

How the data were processed

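Bulk RNA sequencing of 5 KO and 5 NTC tumors was analysed from 10 files of raw counts, 1 per tumor, which the authors made and deposited. The submitters' processing notes name FastQC, Trimmomatic, HISAT2, HTSeq and the build mm10, and strand setting and annotation are not given in the sources used here. The paper's reporting summary states versions of FastQC, Trimmomatic and HISAT2, which are not repeated here. The deposited counts hold reads per gene, and the rows that name no gene (reads in no gene, ambiguous or not aligned uniquely), together 35.3% to 64.1% of all reads in a file, were left out of library sizes and tests. Library sizes were 23243707 to 27006075 reads in KO and 11896643 to 28682130 in NTC, and no 2 libraries held identical values.

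Here genes were filtered with filterByExpr, scaled with TMM and tested by edgeR 4.0.16 (quasi-likelihood test, Benjamini-Hochberg adjustment over all genes tested, R 4.3.3). A gene was called at an adjusted p under 0.05 and an absolute log2 fold change above 1, and for the slope at the adjusted p alone. The fits were group alone, and group with the leukocyte score, a mean of log2 CPM with a prior count of 2. Scores were compared by exact permutation tests (Python 3.11.15). The scripts were tested on simulated data. Gene positions are from GENCODE M21 (GRCm38) and promoter windows from RefSeq (GRCm38.p6). Alternatives were DESeq2 1.42.0, other normalization, filters, dispersion, leukocyte measures, the replicate block and leaving out each tumor.

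The members and the gene lists were chosen with earlier results of these data known. All 34 genes are given. Values per tumor or group range were given for the 8 with the lowest p among those called, the 4 highest and 4 lowest in fold change, the 3 steepest and 3 shallowest slopes, the 4 highest levels per length and a founding gene of each role. Of the pathway lists, *Ifnb1*, *Ifnar1*, *Ifnar2* and the 2 largest absolute fold changes of each role were named. *Stat3*, *Jak1*, *Tlr3* and *Ifi211* were named after their values were seen. Of the genes to be named, 1 is not reported here.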

Additional observations from a re-analysis of the deposited data

Results flagged for a closer look

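In each group of 5 tumors the highest and the lowest value were set against the rest, and 12 of 84 such groups held a tumor whose gap to its nearest neighbour passed the critical share of 0.71 of the whole range (Dixon's test), where chance gives about 1 in 20. The genes vary together, so these are not separate events. KO replicate 5 stood above the other KO tumors in 6 genes. *Isg15* was at 48.0 CPM there and at 23.7 to 30.4 CPM in the other 4. *Oas1a* was at 57.4 CPM, *Oasl1* at 34.6 CPM and *Rsad2* at 269 CPM. *Eif2ak2* was at 133 CPM and *Rtp4*, a chaperone of receptors that also restrains virus replication, at 66.8 CPM. This tumor had the highest leukocyte score of all 10, at 7.14.

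NTC replicate 4 stood below the other NTC tumors in *Ifitm3*, at 193 CPM, and in *Eif2ak2*, at 109 CPM, and it had the lowest leukocyte score, at 3.67. NTC replicate 1 stood apart in 4 measures of the library or its makeup. Its mean log2 CPM of melanoma markers was 8.66, its TMM factor 0.628, its reads on genes 11896643 and its genes with at least 1 read 33193, the first 3 below and the last above the other NTC tumors.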

How the results depend on the processing

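No alternative called any of the 34 genes in KO against NTC, with or without the leukocyte score, and at equal score all 34 values lay below 0 under every alternative run. Without the filter on low counts the median over all genes shifted to -0.16 (KO against NTC), -0.19 (equal score) and 0.28 (slope), 2 genes were lower at an unadjusted p under 0.05 (background 6.02%), 10 rose with the score (background 22%), *Dtx3l* turned to 0.023, and the slopes of *Bst2* and *Cmpk2* to -0.015 and -0.016. By DESeq2 *Ifit2* turned to -0.00047 and *Parp14* to -0.0018, and with RLE normalization to -0.000385 and -0.0018. With the leukocyte score fitted without the group, 9 genes (26.5%) rose with it beside 22.6% of all genes, and slopes turned to -0.048 for *Isg15*, -0.0041 for *Bst2*, -0.021 for *Cmpk2* and -0.016 for *Xaf1*. With the replicate block 9 genes were lower at an unadjusted p under 0.05 at equal score (background 6.13%), 2 genes (*Irf7* and *Trim30a*, 5.88%) rose with the score beside 13.5% of all genes, so the share of the 34 was then under the background, *Ifit2* was -0.014 and *Dtx3l* 0.0063, and slopes turned to -0.047 (*Isg15*), -0.036 (*Bst2*), -0.0046 (*Cmpk2*), -0.027 (*Ifi35*) and -0.072 (*Xaf1*). Tumors of the same number correlated at 0.17, -0.29, 0.08, 0.63 and 0.21 in their deviations, and 2 of the 5 correlated best with their own number, so the numbers were not taken as pairs. The causes of these changes were not tested. Leaving out 1 tumor, the count of genes lower at an unadjusted p under 0.05 ran from 1 to 13, and at equal score from 8 to 26, the count that rose with the score from 11 to 17 (background 15.5% to 23.0%), and the median of the 34 from -0.36 without NTC replicate 4 to -0.15 without KO replicate 4. Fold changes of KO against NTC ran from -0.33 to 0.27 (*Irf7*), -0.040 to 0.11 (*Irf9*), -0.30 to 0.036 (*Ifit1*), -0.23 to 0.12 (*Ifit2*), -0.22 to 0.059 (*Ifit3*), -0.50 to 0.11 (*Oas3*), -0.12 to 0.076 (*Parp14*) and -0.12 to 0.061 (*Dtx3l*), all with a turn of sign. With no turn of sign *Oasl1* ran from -0.56 (without KO replicate 5) to -0.0084 (without KO replicate 4), *Trim30a* from -0.59 (KO replicate 5) to -0.12 (NTC replicate 1), *Oas2* from -0.41 (NTC replicate 4) to -0.090 (NTC replicate 1), and *Cmpk2* from -0.37 and *Bst2* from -0.26 (both NTC replicate 4) to -0.061 and -0.062 (both NTC replicate 3). Many of the other genes also moved by over 1.5 times, among them *Mx1* (-0.62 to -0.24), *Usp18* (-0.55 to -0.19), *Rtp4* (-0.46 to -0.19) and *Herc6* (-0.31 to -0.10). Slopes ran from -0.0070 to 0.20 (*Isg15*), -0.049 to 0.12 (*Bst2*), -0.070 to 0.11 (*Cmpk2*) and -0.0072 to 0.13 (*Ifi35*). Of the values of single genes under other settings 805 kept direction and side of the threshold, 18 turned in sign and 27 lost the call. With 1 tumor left out 966 kept both, 28 turned in sign, 20 lost the call and 6 gained it. In KO against NTC, with or without the score, no gene was ever called, so only the direction could change there. A value could shrink or grow and still count as kept. With 5 tumors a group, even differences of several standard errors, as in *Mx2* or in *Trim30a* at equal score, did not pass edgeR's test over 10 tumors. A gene that was not called may therefore still differ. Counts below the filter, the ligands among them, were not tested.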
